A study of Rattus norvegicus with 30 samples.

Results

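The homeobox transcription factor genes were followed in rat bone marrow mesenchymal stem cells (BMSCs) over 72 h in osteogenic (OS), adipogenic (AD) or chondrogenic (CH) medium. The members were all gene names in the expression files that begin with the name of a homeobox family (Hox, Dlx, Msx, Meox, Gbx, Emx, the sine oculis homeobox genes, Lhx, Nkx, Irx, Meis, Pbx, Prrx, Pitx, Alx, Pax, Tgif, Pou, Zfhx or Tshz) followed by a number, plus Hopx. This gave 62 of 9999 gene names. The choice rested on names alone, so it could take genes that code for no homeobox protein. An example is Pou2af1, which codes for a coactivator of POU proteins. Homeobox genes outside these names, such as Hlx and Gsc, are counted separately at the end.

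The cells were marrow mesenchymal stem cells of the Sprague Dawley strain, taken from the femurs and tibiae of 3 female rats that were 3 weeks old, and induced at passage 2 in commercial osteogenic, adipogenic or chondrogenic medium. The undifferentiated group (CON, 0 h) and each lineage at 3, 12 and 72 h had 3 samples, 30 in all. Each sample pooled 3 cultures, and the sources used here do not tie samples to animals, so the p values measure the spread between these samples, which may be technical. All 3 lineages were set against the same 3 undifferentiated samples, and later time points had no uninduced culture beside them, so time in culture and induction cannot be told apart in any comparison with 0 h.

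Expression is given in CPM, reads scaled to the total of the library, which is not corrected for gene length, so levels are compared between samples and never between genes. Libraries held 3899609 to 9046719 reads, and the smallest were the 3 of CH at 72 h. A level of 3 reads, 0.332 to 0.769 CPM depending on the library, was taken as the floor under which a level was not read as expression. A total of 22 members reached 1 CPM in at least 3 samples and were tested, among 4363 genes in all. A gene is said to have risen or fallen when its log2 fold change was at least 1 in size with a Benjamini-Hochberg adjusted p under 0.05 in limma, over all genes tested. Each fold change was fitted to log2(CPM + 1), so the change of a gene near 1 CPM comes out too small. Median-ratio scaling in place of CPM gave shifts of the median of all genes from -0.21 to 0.11 on the log2 scale in the comparisons with 0 h, and no member changed direction among the calls. In bulk samples, fewer cells that express a gene and less RNA per cell cannot be told apart.

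Among the libraries, AD replicate 3 at 72 h stood apart, with 74 genes more than 2 log2 units from the other replicates, followed by AD replicate 1 at 12 h with 24 and OS replicate 3 at 3 h with 18, while the other 27 libraries had 0 to 13. Changes from 0 h in these groups whose call turned on such a library are given with and without it. As for the labelled cell type, summed BMSC markers were high in the undifferentiated cells (16085 to 16892 CPM over 7 genes) and lowest in AD at 72 h (4112 to 4779 CPM). Thy1 and Itgb1 made up nearly all of this sum, with means of 8052 and 7730 CPM at 0 h, while Eng, Vcam1, Pdgfra and Pdgfrb were at means of 0 to 0.964 CPM there. Summed leukocyte markers reached at most 4.08 CPM (3 genes) and endothelial markers at most 7.08 CPM (3 genes) in any sample. Of these low genes, Lyz2 was called higher in AD at 72 h, and Tek in OS at 3 and 72 h and AD at 3 h. Vwf was called lower in all 3 lineages at 12 h. Osteoblast markers (7 genes) summed to 2.93 to 3.18 CPM at 0 h and 3.47 to 5.77 CPM in OS at 72 h, with Sp7 at 0 reads, but to 202 to 320.3 CPM in CH at 72 h, where Ibsp had a mean of 246.5 CPM and was called higher, as it was in CH at 3 and 12 h and in no OS group. Adipocyte markers (7 genes), nearly all of them Lpl reads, summed to 664 to 778 CPM at 0 h, 254 to 1094 CPM in AD at 12 h, 1163 to 3221 CPM in AD at 72 h and 1041 to 1146 CPM in OS at 72 h. Lpl and Plin1 were called higher in AD at 72 h, and Pparg in OS at 72 h. Chondrocyte markers (10 genes) summed to 1173 to 1517 CPM in CH at 72 h against 47.5 to 52.2 CPM at 0 h, and nearly all of this was Sox9, with a mean of 1299 CPM in CH at 72 h. Comp was at 21.6 CPM there, Col2a1 at 0.331 CPM, and Acan, Matn1, Matn3 and Hapln1 at 0.

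Most homeobox genes code for transcription factors that bind DNA through a homeodomain. The HOX genes lie in the HOXA, HOXB, HOXC and HOXD clusters, and their order along a cluster follows the body axis, with low numbers anterior and high numbers posterior or distal in the limb. Cells taken from a bone tend to keep a HOX pattern that reflects their place of origin. DLX and MSX factors act in skeletal and craniofacial development and in osteoblasts, MEOX factors in somites and their derivatives, and PAX and POU factors in the fate of many organs.

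In OS, 6, 8 and 5 of the 22 tested members passed the threshold at 3, 12 and 72 h. At 3 h, 3 rose (Dlx3, Hopx and Hoxd13) and 3 fell (Emx2, Meox2 and Zfhx2) of 22, or 27.3%, where 18.4% of all tested genes were called (11.7% higher and 6.67% lower). At 12 h, 4 rose (Dlx3, Hopx, Hoxd13 and Pax8) and 4 fell (Hoxd3, Hoxd9, Meox2 and Zfhx2), against 21.8% of all genes (14.7% higher and 7.15% lower). At 72 h, 4 rose (Dlx3, Hopx, Meox2 and Msx2) and 1 fell (Pax8), against 12.5% of all genes (7.2% higher and 5.29% lower). With median-ratio scaling 3 rose and 5 fell at 3 h, against 18.3% of all genes under that scaling (8.64% higher and 9.63% lower). At 12 h 3 rose and 8 fell, against 20.6% (9.6% higher and 11% lower), and at 72 h 4 rose and 2 fell, against 12.8% (6.17% higher and 6.62% lower). In edgeR, 4 rose and 7 fell at 3 h, where it called 23% of all genes (10.4% higher and 12.6% lower), and 4 rose and 10 fell at 12 h, against 27.4% (10.7% higher and 16.7% lower).

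In AD, falls outnumbered rises at 3 and 72 h. At 3 h, 2 rose (Dlx3 and Pou2f3) and 5 fell (Hoxc6, Hoxd9, Hoxd10, Meox2 and Pou6f1), where 18.8% of all genes were called (12.4% higher and 6.42% lower). At 12 h, Dlx3 rose and Hoxd9 fell, against 13.7% of all genes (8.14% higher and 5.55% lower), and each of these 2 calls depended on single libraries. At 72 h, 4 fell (Hoxd9, Hoxd13, Pax8 and Zfhx2) and none rose, against 15.3% of all genes (6.19% higher and 9.08% lower). edgeR on the reads behind the CPM values also gave 0 higher, with 6 lower, against 9.65% and 10.1% of all genes. Without AD replicate 3 of 72 h, the falls of Hoxd13, Pax8 and Zfhx2 still passed and that of Hoxd9 did not. With median-ratio scaling AD at 12 h had 1 higher and 2 lower, against 5.59% and 7.79% of all genes.

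In CH, Gbx2 rose at every time point. At 3 h, 3 rose (Gbx2, Hoxd13 and Pax8) and 3 fell (Hoxc6, Meox2 and Tshz2), where 18% of all genes were called (13.1% higher and 4.88% lower). At 12 h, Gbx2 rose and Meox2 fell, against 14.4% of all genes (9.44% higher and 5% lower), with 1 higher and 3 lower under median-ratio scaling (6.26% and 7.31% of all genes). At 72 h, Gbx2 rose and 4 fell (Dlx3, Hoxc6, Pax8 and Tshz2), against 18% of all genes (11.6% higher and 6.37% lower). In at least 1 of the 9 comparisons, 16 of the 22 members passed the threshold, which 53.2% of all genes did. The 9 comparisons share the 3 undifferentiated samples. The median log2 fold change of the 22 members was -0.41 in OS at 12 h, where that of all tested genes was 0.09, and 0.19 in OS at 72 h, where that of all genes was 0.08.

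**Figure D1:**
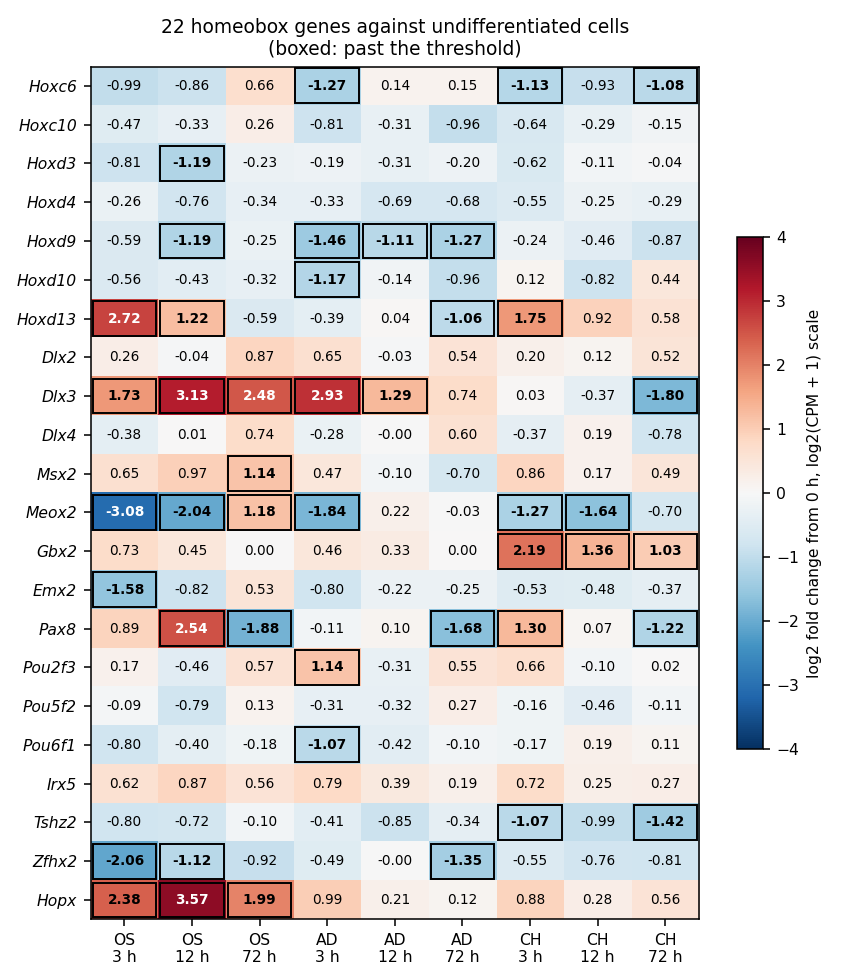
Log2 fold change from 0 h of the 22 tested homeobox genes (rows) in the 9 groups (columns: OS, AD and CH at 3, 12 and 72 h), on the log2(CPM + 1) scale, with boxed cells past the threshold. Dlx3 was boxed in all OS columns and Gbx2 in all CH columns, and Meox2 ran from -3.08 in OS at 3 h to 1.18 in OS at 72 h.

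Dlx3, a distal-less factor that acts in osteoblasts, hair follicles and teeth, was past the threshold in 18 of the 24 comparisons made, more than any other member. The undifferentiated samples were at 27.9, 29.4 and 31.7 CPM (replicates 1, 2 and 3, an order kept throughout), with a mean of 29.7 ± 1.896 CPM (SD, n = 3). In OS the values were 95.6, 95.3 and 111 CPM at 3 h, 272, 269.8 and 258 at 12 h, then 155, 180.4 and 175 at 72 h. No OS sample overlapped the undifferentiated samples, and the level was highest at 12 h, where the mean was 8.98 times that at 0 h. The log2 fold changes from 0 h were 1.73 ± 0.30 (SE; limma adjusted p = 1.64e-05) at 3 h, 3.13 ± 0.30 (adjusted p = 3.39e-10) at 12 h and 2.48 ± 0.30 (adjusted p = 7.91e-08) at 72 h.

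In AD, Dlx3 was higher at 3 h than in OS and then lower again. The values were 232, 229.6 and 234 CPM at 3 h, 190.0, 43.3 and 49.03 at 12 h, then 42.9, 39.01 and 74.6 at 72 h. All 3 samples of 3 h were above every OS sample of 3 h, and at 12 h replicate 1 was far above the other two. The log2 fold change from 0 h was 2.93 ± 0.30 (SE; limma adjusted p = 2.02e-09) at 3 h and 1.29 ± 0.30 (adjusted p = 0.000838) at 12 h, but 0.62 at 12 h without AD replicate 1, which ended that call. At 72 h it was 0.74 ± 0.30 (adjusted p = 0.0523), short of the threshold, and 0.45 without AD replicate 3. From 3 to 12 h, Dlx3 went up in OS by 1.40 ± 0.30 (SE; limma adjusted p = 0.000692) and down in AD with a log2 difference of -1.63 ± 0.30 (adjusted p = 6.91e-05), a fall that was -2.31 without AD replicate 1 of 12 h.

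In CH, Dlx3 stayed near its starting level at 3 h and was low at 72 h. The values were 29.97, 29.9 and 31.1 CPM at 3 h, 19.8, 26.6 and 22.3 at 12 h, then 6.92, 7.296 and 9.34 at 72 h, the last from 27, 33 and 42 reads. All samples of 12 and 72 h were below the undifferentiated samples, while those of 3 h overlapped them. Only the fall at 72 h passed the threshold of the 3, at -1.80 ± 0.30 (SE; limma adjusted p = 1.01e-05), and the other estimates were 0.03 and -0.37. Between lineages, OS was below AD at 3 h with a log2 difference of -1.20 ± 0.30 (SE; limma adjusted p = 0.00413) and above it at 12 h by 1.83 ± 0.30 (adjusted p = 1.21e-05) and at 72 h by 1.74 ± 0.30 (adjusted p = 2.21e-05). OS was above CH at each time. At 72 h this difference was 4.28 ± 0.30 (SE; limma adjusted p = 4.42e-13), or 21.7 times the CPM. It was the greatest of any member in any comparison between lineages on the log2(CPM + 1) scale, an order that need not hold for ratios of CPM. CH was below AD with a log2 difference of -2.89 ± 0.30 (SE; limma adjusted p = 6.15e-09) at 3 h, -1.66 ± 0.30 (adjusted p = 4.75e-05) at 12 h and -2.54 ± 0.30 (adjusted p = 1.98e-08) at 72 h, and the difference at 12 h was -0.99 without AD replicate 1, just short of the threshold.

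Among its paralogs, Dlx2, which acts in forebrain and branchial arch development, had 0 to 11 reads in each sample and passed in no comparison, and its furthest estimate from 0 h was 0.87 ± 0.28 (SE; limma adjusted p = 0.0186) in OS at 72 h. That group held 25 Dlx2 reads against 5 at 0 h, a ratio of 5.25 with an exact 95% counting interval of 1.98 to 17.6, AD at 72 h held 16, a ratio of 3.78 (1.32 to 13.2), and AD at 3 h held 23, a ratio of 4.31 (1.60 to 14.5). Dlx4 had 2.86, 2.37 and 4.25 CPM at 0 h and did not pass against 0 h in any group. At 3 h it was at 4.39, 0.79 and 2.21 CPM in OS, 1.33, 3.304 and 2.83 in AD and 1.95, 2.202 and 2.34 in CH. At 12 h it was at 4.67, 3.14 and 1.98 CPM in OS, 4.096, 4.79 and 1.295 in AD and 2.46, 4.67 and 4.12 in CH. The samples of CH at 3 h were just below all those of 0 h, and the other groups of 3 and 12 h overlapped them. At 72 h it was at 5.97, 6.08 and 5.42 CPM in OS, 6.94, 5.85 and 3.33 in AD and 1.28, 1.11 and 1.78 in CH. CH lay below all OS and AD samples there, with OS above CH by 1.52 ± 0.36 (SE; limma adjusted p = 0.000897) and CH below AD with a log2 difference of -1.38 ± 0.36 (adjusted p = 0.00189). Dlx5, known as an early factor of osteoblasts, was at 33 reads in all 30 samples together, with at most 7 in a sample, of CH at 72 h, and was not tested.

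Msx2, a repressor in craniofacial bone and limb buds that is induced by BMP signals, was at 6.02, 9.19 and 9.55 CPM at 0 h. In OS it was at 15.8, 11.5 and 12.9 CPM at 3 h, 17.9, 17.5 and 15.1 at 12 h, then 20.1, 17.8 and 19.3 at 72 h. All 9 OS samples were above the undifferentiated ones, and the change passed the threshold at 72 h, at 1.14 ± 0.23 (SE; limma adjusted p = 0.00024), with 0.95 without CON replicate 1, which ended the call. The 3 h and 12 h estimates of 0.65 and 0.97 stayed under the fold limit. In AD the values were 12.9, 9.76 and 12.3 CPM at 3 h, 12.9, 5.52 and 5.74 at 12 h, then 5.34, 3.37 and 5.39 at 72 h. In CH they were 15.3, 16.6 and 14.8 CPM at 3 h, 9.97, 9.51 and 8.396 at 12 h, then 12.3, 11.5 and 11.6 at 72 h. The AD samples of 3 h and the CH samples of 3 and 72 h were also above all undifferentiated ones. The AD samples of 72 h were below them. None of these changes from 0 h in AD or CH passed the threshold. At 72 h, OS was above AD by 1.84 ± 0.23 (SE; limma adjusted p = 2.08e-07) and CH above AD by 1.19 ± 0.23 (adjusted p = 7.01e-05), with no overlap of samples in either pair. At 12 h, OS was above AD by 1.07 ± 0.23 (SE; limma adjusted p = 0.000456), and this call was lost without AD replicate 2 (0.88) or 3, with median-ratio scaling (0.99) and in edgeR (0.92).

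Meox2, a mesenchyme homeobox factor of somites, limb muscle precursors and blood vessels, had calls in 15 of 24 comparisons. Its RefSeq promoter in GRCr8 (the 250 bases before the start at chr6:59583775-59584024, plus strand) is shown, as are those of Hopx, Gbx2, Hoxd13 and Pax8 further on, because these were the members with the most calls among those with a window in the RefSeq promoter table used here, which held none for Dlx3 or Hoxc6. The files name no genome build, so the windows were matched by gene symbol only. Capitals mark the TATA box (TATAAA), the CCAAT box (CCAAT) or the GC box (GGGCGG) on either strand, and positions count back from -1, the base before the start.
Meox2: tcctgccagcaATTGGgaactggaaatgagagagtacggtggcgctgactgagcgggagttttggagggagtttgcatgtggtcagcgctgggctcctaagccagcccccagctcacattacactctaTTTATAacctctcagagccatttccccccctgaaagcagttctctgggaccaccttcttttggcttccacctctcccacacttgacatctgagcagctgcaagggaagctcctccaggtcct
The window held TATAAA at -122 and CCAAT at -239, both on the strand opposite to the printed letters. Of all 33469 RefSeq promoter windows, 12.9% held TATAAA, 34.0% CCAAT and 30.5% GGGCGG.

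The undifferentiated samples had Meox2 at 283, 321 and 263 CPM. In OS it dropped to 41.4, 39.3 and 22.3 CPM at 3 h, was at 64.8, 70.1 and 73.3 at 12 h and reached 616, 679.6 and 668 at 72 h. Every OS sample of 3 and 12 h lay below the undifferentiated range and every sample of 72 h above it. The log2 fold changes from 0 h were -3.08 ± 0.19 (SE; limma adjusted p = 4.83e-14) at 3 h, -2.04 ± 0.19 (adjusted p = 2.1e-10) at 12 h and 1.18 ± 0.19 (adjusted p = 1.1e-05) at 72 h. Meox2 was 8.42 times lower in mean CPM at 3 h and 2.26 times higher at 72 h. Between 12 and 72 h alone it rose by 3.22 ± 0.19 (SE; limma adjusted p = 6.25e-15).

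Meox2 also fell at 3 h in the other lineages, with a log2 difference of -1.84 ± 0.19 (SE; limma adjusted p = 2.65e-09) in AD and -1.27 ± 0.19 (adjusted p = 1.94e-06) in CH. The AD samples were at 71.2, 92.8 and 76.7 CPM at 3 h, 478, 281 and 280.3 at 12 h, then 360.4, 293 and 215 at 72 h. The 12 h and 72 h groups of AD overlapped the undifferentiated samples, with estimates of 0.22 and -0.03. The CH samples were at 111, 124 and 121 CPM at 3 h, 94.5, 89.1 and 92.5 at 12 h, then 188, 176 and 166 at 72 h. All 9 CH samples lay below the undifferentiated ones, and the change passed at 12 h, at -1.64 ± 0.19 (SE; limma adjusted p = 3.3e-08), but not at 72 h, at -0.70 ± 0.19 (adjusted p = 0.00357), where it was under the fold limit.

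At 3 h OS had less Meox2 than AD, with a log2 difference of -1.24 ± 0.19 (SE; limma adjusted p = 1.17e-05), and than CH, with a log2 difference of -1.81 ± 0.19 (adjusted p = 1.63e-08). The first difference was -0.97 without OS replicate 3, the lowest of its group, which ended the call. At 12 h, AD was above both others, with OS minus AD at -2.26 ± 0.19 (SE; limma adjusted p = 8.2e-11) and CH minus AD at -1.85 ± 0.19 (adjusted p = 3.61e-09). At 72 h OS was above CH by 1.88 ± 0.19 (SE; limma adjusted p = 1.4e-09) and above AD by 1.21 ± 0.19 (adjusted p = 7.1e-06). The difference from AD was 0.86 with median-ratio scaling and 0.93 in edgeR, both under the fold limit with the same direction. Meox1, its paralog, had 2 reads in all 30 samples.

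**Figure D2:**
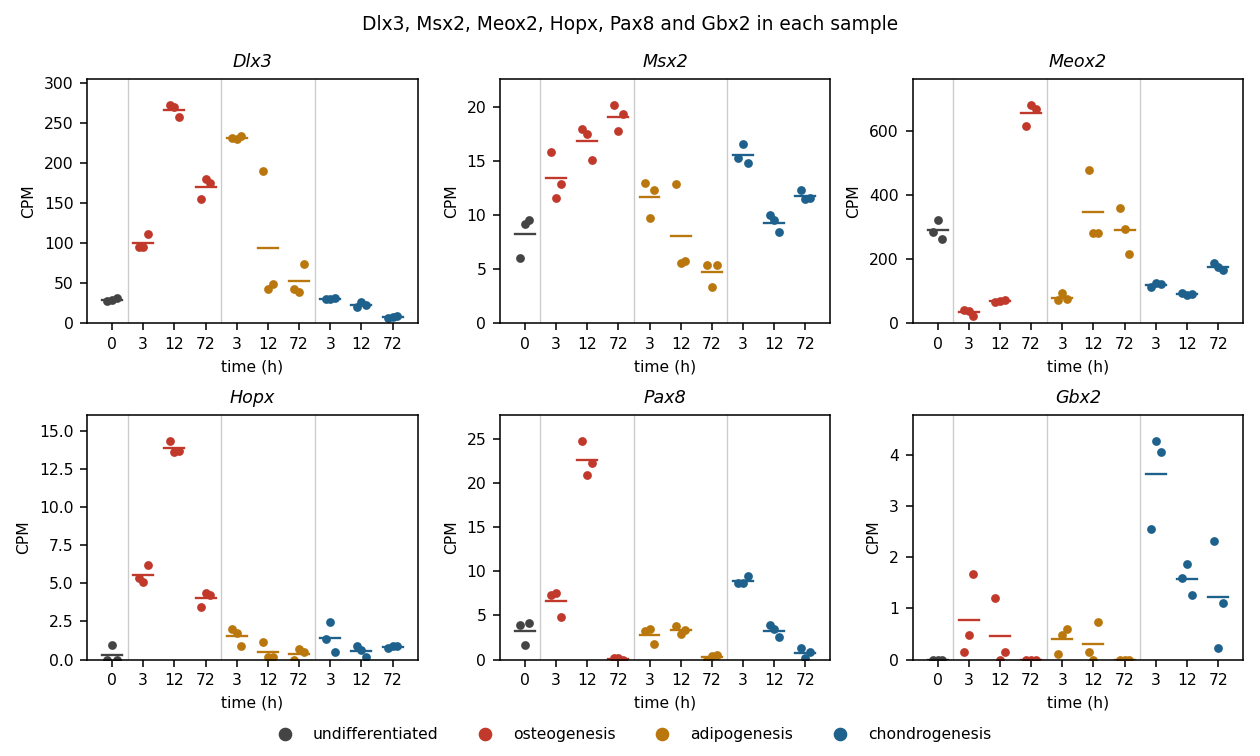
CPM of Dlx3, Msx2, Meox2, Hopx, Pax8 and Gbx2 in each of the 30 samples (points) by time in hours, with group means (lines) of 3 samples each, in undifferentiated cells and the 3 lineages. Hopx and Pax8 peaked in OS at 12 h, with 13.6 to 14.3 and 20.9 to 24.7 CPM, and the AD samples of 12 h were split in Dlx3, Msx2 and Meox2, where replicate 1 was above the others.

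Hopx codes for a small homeodomain protein that does not bind DNA and marks stem and progenitor cells in several tissues. Its window lay at chr14:31429163-31429412 on the plus strand and held none of the 3 motifs.
Hopx: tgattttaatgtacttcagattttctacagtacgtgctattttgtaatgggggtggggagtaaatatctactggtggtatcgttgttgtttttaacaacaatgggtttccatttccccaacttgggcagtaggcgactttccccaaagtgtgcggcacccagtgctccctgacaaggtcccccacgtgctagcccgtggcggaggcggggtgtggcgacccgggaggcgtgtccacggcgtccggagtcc
The undifferentiated samples had 0, 7 and 0 reads of Hopx, so it was at 0, 0.975 and 0 CPM. In OS it was at 5.33, 5.06 and 6.22 CPM at 3 h, 14.3, 13.6 and 13.7 at 12 h, then 3.43, 4.37 and 4.22 at 72 h, from 23 to 95 reads. All 9 OS samples were above every sample of CON, AD and CH, of which the highest had 2.496 CPM. The log2 fold changes from 0 h were 2.38 ± 0.31 (SE; limma adjusted p = 1.71e-07), 3.57 ± 0.31 (adjusted p = 4.34e-11) and 1.99 ± 0.31 (adjusted p = 6.11e-06). AD and CH did not pass at any time, and their highest estimates were those of 3 h, 0.99 ± 0.31 (SE; limma adjusted p = 0.00978) in AD and 0.88 ± 0.31 (adjusted p = 0.0215) in CH, with 4 to 18 reads a sample.

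Hopx was higher in OS than in both other lineages at each time point. The differences from AD were 1.39 ± 0.31 (SE; limma adjusted p = 0.00143) at 3 h, 3.36 ± 0.31 (adjusted p = 5.27e-10) at 12 h and 1.87 ± 0.31 (adjusted p = 1.37e-05) at 72 h. At 3 h it was 3.83 times its CPM in CH (limma adjusted p = 0.000598), and the later differences from CH were 3.29 ± 0.31 (adjusted p = 4.55e-10) at 12 h and 1.43 ± 0.31 (adjusted p = 0.000327) at 72 h. With a pseudocount of 0.1, which gives more weight to differences among low counts, the calls at 3 h were lost (adjusted p = 0.118 from limma against AD and 0.0654 against CH). Within OS, Hopx rose from 3 to 12 h by 1.19 and fell from 12 to 72 h with a log2 difference of -1.58, and both calls were lost with that pseudocount, the first also in edgeR (adjusted p = 0.0708). The annotation places noncoding RNA genes over part of Hopx, and whether the counting used strand is not given in the sources used here.

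Gbx2, a gastrulation brain homeobox factor known for setting the boundary between midbrain and hindbrain, was past the threshold in CH alone. Its window at chr9:97959884-97960133 on the minus strand held none of the 3 motifs and was 76.4% G or C, against a median of 51.2% over all windows.
Gbx2: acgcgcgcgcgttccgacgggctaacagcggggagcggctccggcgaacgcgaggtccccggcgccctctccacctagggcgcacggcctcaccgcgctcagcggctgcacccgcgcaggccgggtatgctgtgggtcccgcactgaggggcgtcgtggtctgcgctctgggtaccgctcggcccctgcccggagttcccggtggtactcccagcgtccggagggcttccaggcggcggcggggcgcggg
No read of Gbx2 was counted in the undifferentiated samples, in OS at 72 h or in AD at 72 h. The CH samples had 17, 29 and 33 reads at 3 h, 11, 12 and 8 at 12 h, then 9, 1 and 5 at 72 h. That was 2.55, 4.26 and 4.06 CPM, 1.59, 1.87 and 1.27 CPM and 2.31, 0.221 and 1.11 CPM. Against a floor of 3 reads per library at 0 h, the mean CPM was at least 7.96-fold higher at 3 h, 3.46-fold at 12 h and 2.67-fold at 72 h. The fitted changes were 2.19 ± 0.31 (SE; limma adjusted p = 9.8e-07), 1.36 ± 0.31 (adjusted p = 0.000797) and 1.03 ± 0.31 (adjusted p = 0.00922), values that depend on the pseudocount.

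The level of Gbx2 in CH at 72 h rested on replicate 1, since replicate 2 had 1 read, and without replicate 1 the estimate was 0.68 and not past the threshold. The early OS and AD samples had 0 to 12 reads, and their estimates from 0 h were at most 0.73. At 3 h, CH was above AD by 1.73 ± 0.31 (SE; limma adjusted p = 9.23e-05) and above OS, with OS minus CH at -1.46 ± 0.31 (adjusted p = 0.000955), although edgeR gave an adjusted p of 0.0772 for the second. At 12 h, CH minus AD was 1.03 ± 0.31 (adjusted p = 0.0118), lost in edgeR (adjusted p = 0.0746), with median-ratio scaling (0.99) and without AD replicate 1, AD replicate 2 (0.86) or CH replicate 2.

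Emx2, an empty spiracles factor of the urogenital tract, forebrain and shoulder blade, was at 7.88, 6.96 and 7.89 CPM at 0 h. In OS it was at 2.35, 1.11 and 2.35 CPM at 3 h, 5.12, 3.14 and 3.504 at 12 h, then 11.9, 9.99 and 12.2 at 72 h. The fall at 3 h passed, at -1.58 ± 0.29 (SE; limma adjusted p = 5.25e-05), with no overlap between the groups. It then rose by 1.35 ± 0.29 (SE; limma adjusted p = 0.000322) between 12 and 72 h, to values above all undifferentiated samples, an estimate of 0.53 from 0 h that did not pass. OS was below CH at 3 h with a log2 difference of -1.05 ± 0.29 (SE; limma adjusted p = 0.0104), a call lost without CH replicate 2 (-0.68) or OS replicate 2 and with median-ratio scaling (-0.96). In AD it was at 4.09, 3.62 and 4.02 CPM at 3 h, 11.3, 4.97 and 4.44 at 12 h, then 6.05, 8.51 and 4.59 at 72 h. In CH it was at 3.896, 8.95 and 3.32 CPM at 3 h, 4.91, 4.99 and 5.54 at 12 h, then 5.39, 5.75 and 5.78 at 72 h. No change from 0 h in AD or CH passed, with estimates of -0.80 to -0.22. Emx2 lies over an antisense transcript, Emx2os, so its reads may not all come from 1 strand.

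Reads of the HOX genes named in the files were uneven between clusters. HOXA (5 names) had 19 reads in all 30 samples together and HOXB (4 names) had 16, and both were at 0 reads in all 3 undifferentiated samples, where a count of 0 allows up to 0.430, 0.418 and 0.455 CPM per gene. HOXC (5 names) had 673 reads and HOXD (6 names) 1829, and 2 and 5 of their genes were tested. Of the 16 HOXB reads, 13 were in the 3 CH samples of 72 h. The tested ones were Hoxc6, Hoxc10, Hoxd3, Hoxd4, Hoxd9, Hoxd10 and Hoxd13, from the anterior, middle and posterior parts of their clusters. HOX genes whose names are not in the files were not analysed here, so these sums are not those of whole clusters. A missing name is not a measure of low expression.

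Hoxd13, the most posterior gene of HOXD and a regulator of digits, was the one with the most calls, 12 of 24. Its window at chr3:79977827-79978076 on the plus strand held TATAAA at -204 and -202, an overlapping pair on opposite strands, and GGGCGG at -169, -165, -161 and -110.
Hoxd13: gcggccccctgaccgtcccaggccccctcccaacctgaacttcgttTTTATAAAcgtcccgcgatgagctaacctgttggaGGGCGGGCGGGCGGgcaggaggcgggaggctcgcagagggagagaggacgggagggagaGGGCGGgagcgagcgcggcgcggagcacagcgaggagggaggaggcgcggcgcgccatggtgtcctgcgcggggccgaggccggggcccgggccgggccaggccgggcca
It was at 1.86, 1.25 and 1.82 CPM at 0 h, from 13, 9 and 12 reads. The OS samples had 19.9, 18.3 and 11.8 CPM at 3 h, 4.37, 5.83 and 5.33 CPM at 12 h and finally 1.04, 0.624 and 0.603 CPM. In CH it was at 8.54, 9.25 and 6.02 CPM at 3 h, 5.49, 2.96 and 3.802 at 12 h, then 3.59, 2.87 and 2.45 at 72 h. All OS samples of 3 and 12 h and all CH samples lay above the undifferentiated ones, and all OS samples of 72 h below. The rise at 3 h was 2.72 ± 0.32 (SE; limma adjusted p = 4.23e-08) in OS, 10.1 times the CPM at 0 h, and 1.75 ± 0.32 (adjusted p = 5.25e-05) in CH. At 12 h OS still passed, at 1.22 ± 0.32 (adjusted p = 0.00243), but not with median-ratio scaling (0.98), and CH did not, at 0.92 ± 0.32 (adjusted p = 0.0251).

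In AD, Hoxd13 did not rise. The AD samples had 1.88, 0.944 and 0.446 CPM at 3 h, 4.39, 0.737 and 1.11 at 12 h, then 0, 0.355 and 0.475 at 72 h, the last from 0, 2 and 3 reads. Replicate 1 of 12 h was again above the other replicates, and the 72 h samples were below all undifferentiated ones. The fall at 72 h was -1.06 ± 0.32 (SE; limma adjusted p = 0.0104), a ratio of 5.76 between 0 h and 72 h with an exact 95% counting interval of 2.24 to 18.9, and the call was lost without AD replicate 1 (-0.90). At 3 h, AD was below OS, with OS minus AD at 3.10 ± 0.32 (SE; limma adjusted p = 1.39e-08), and below CH, with CH minus AD at 2.14 ± 0.32 (adjusted p = 7.76e-06). At 72 h, CH was above AD by 1.65 ± 0.32 (SE; limma adjusted p = 9.18e-05), and OS was below CH with a log2 difference of -1.18 ± 0.32 (adjusted p = 0.00410). At 12 h, OS was above AD by 1.19 ± 0.32 (adjusted p = 0.00477), a call lost in edgeR (adjusted p = 0.0514) and without AD replicate 2 (0.87).

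No other tested HOXD gene rose from 0 h. Hoxd9, a mid-cluster gene of the proximal limb, was at 3.15, 1.81 and 3.18 CPM at 0 h, 0.442, 0.629 and 0 in AD at 3 h, 0.439, 0.737 and 0.925 at 12 h, then 0.534, 0.709 and 0.317 at 72 h. All 9 AD samples were below the undifferentiated ones, and the falls were -1.46 ± 0.42 (SE; limma adjusted p = 0.00511), -1.11 ± 0.42 (adjusted p = 0.0369) and -1.27 ± 0.42 (adjusted p = 0.0165). The fall at 3 h held in all fits without 1 library, whereas that at 12 h was lost in 5 of 6 such fits (-0.999 without AD replicate 1) and that at 72 h in 3 of 6 (-1.17 without AD replicate 3). OS at 12 h, at 0.753, 0.598 and 0.457 CPM, had fallen with a log2 fold change of -1.19 ± 0.42 (adjusted p = 0.0196), a call lost in 3 of 6 (-1.10 without CON replicate 3) and with no filter on low values (adjusted p = 0.0521 from limma). In OS at 3 h the samples were at 1, 4 and 48 reads, with replicate 3 far above the others. The estimate from 0 h was -0.59 there and did not pass, but without replicate 3 it was -1.41 (limma adjusted p = 0.00061), past the threshold.

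Hoxd10, which patterns the hindlimb, was at 1.58, 2.37 and 3.03 CPM at 0 h and 0.332, 0.787 and 0.297 in AD at 3 h, a log2 fold change of -1.17 ± 0.32 (SE; limma adjusted p = 0.00379) with no overlap. It was higher in CH than in AD at 3 h, by 1.29 ± 0.32 (adjusted p = 0.00353), and at 72 h, by 1.40 ± 0.32 (adjusted p = 0.000525), where CH was at 4.62, 3.54 and 2.45 CPM and AD at 0.534, 0.887 and 0.634. Hoxd3, an anterior gene, fell in OS at 12 h, from 1.86, 1.81 and 2.58 to 0.151, 0.598 and 0.305 CPM, or -1.19 ± 0.31 (SE; limma adjusted p = 0.00207). In OS at 3 h the estimate was -0.81, under the fold limit, and -1.08 without replicate 3, past the threshold. At 12 h, Hoxd3 was lower in OS than in CH, with a log2 difference of -1.09 ± 0.31 (SE; limma adjusted p = 0.00603). That call was lost without OS replicate 1 (-0.98) or CH replicate 1 of 12 h. Hoxd4 had 0 to 12 reads a sample and passed in no comparison, and it lies over a noncoding RNA of the opposite strand. Hoxd11 had 5 reads in all 30 samples.

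Hoxc6, a gene of the mid trunk, was low in all samples, at 9, 10 and 14 reads at 0 h. In AD it was at 2, 0 and 0 reads at 3 h and 14, 6 and 14 at 12 h, which was 0.221, 0 and 0 and 2.05, 1.105 and 2.59 CPM. It fell at 3 h with a log2 difference of -1.27 ± 0.27 (SE; limma adjusted p = 0.00033), a ratio of 17.6 between 0 h and 3 h with an exact 95% counting interval of 4.499 to 151, and had returned by 12 h, with a log2 fold change of 1.41 ± 0.27 (adjusted p = 0.000149). In OS it was at 3, 2 and 1 reads at 3 h and 2, 8 and 0 at 12 h, all below the undifferentiated samples. The OS estimates were -0.99 at 3 h, with a ratio of 5.28 between 0 h and 3 h (2.19 to 15.4), and -0.86 at 12 h, both under the fold limit but called with median-ratio scaling, with the pseudocount of 0.1 and in edgeR. In CH it was at 1, 1 and 2 reads at 3 h, 1, 3 and 3 at 12 h, then 1, 2 and 0 at 72 h. All 9 CH samples were below the undifferentiated ones, with log2 fold changes of -1.13 ± 0.27 (SE; limma adjusted p = 0.00116) at 3 h and -1.08 ± 0.27 (adjusted p = 0.00207) at 72 h, and -0.93 at 12 h just under the fold limit. Both calls were lost without CON replicate 3 (-0.99 at 3 h), and that at 72 h also without CH replicate 3 (-0.94).

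At 72 h, OS had 2.83, 2.81 and 3.62 CPM of Hoxc6 and AD 1.42, 3.55 and 1.11, both above CH at 0.256, 0.442 and 0. OS minus CH was 1.74 ± 0.27 (SE; limma adjusted p = 5.11e-06), and CH minus AD was -1.23 ± 0.27 (adjusted p = 0.000389), which was -0.89 without AD replicate 2. Hoxc6 overlaps Hoxc4 and Hoxc5 in the annotation, so their reads are not always separable. Hoxc10, a lumbar and hindlimb gene, was at 5.01, 1.39 and 3.94 CPM at 0 h and passed only at 72 h between OS, at 4.03, 2.496 and 5.88, and AD, at 1.25, 1.42 and 0.792. This difference of 1.21 ± 0.32 (SE; limma adjusted p = 0.00341) was 0.97 without OS replicate 3. Hoxc11, Hoxc12 and Hoxc13 had 12, 1 and 6 reads in all.

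**Figure D3:**
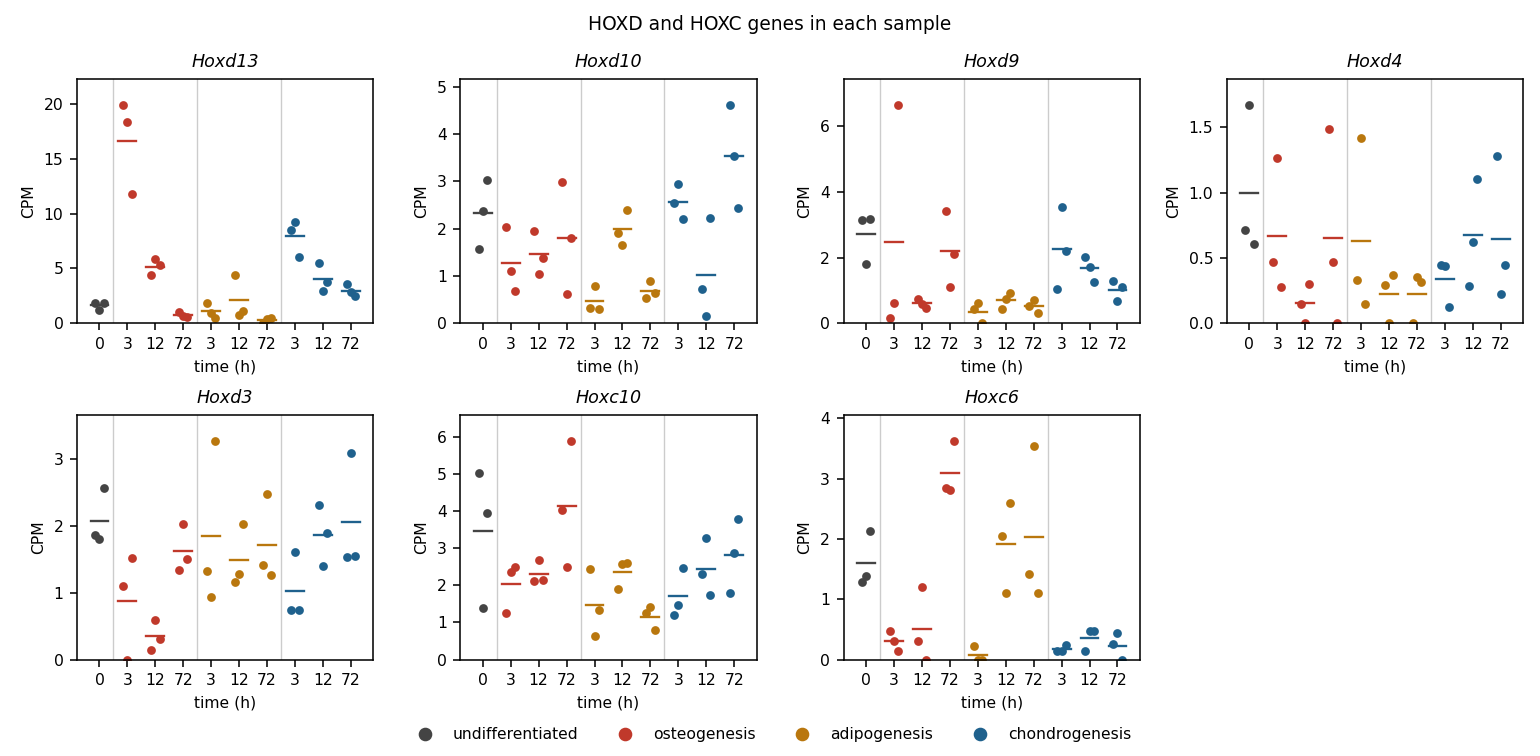
CPM of the 5 HOXD and 2 HOXC genes tested, in each of the 30 samples (points) by time in hours, with group means (lines) of 3 samples each. Hoxd13 stood at 11.8 to 19.9 CPM in OS at 3 h and 6.02 to 9.25 CPM in CH at 3 h, against 1.25 to 1.86 CPM at 0 h.

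Pax8, a paired box factor of thyroid and kidney, had calls in 14 of 24 comparisons and a short peak in OS. Its window at chr3:27640632-27640881 on the minus strand held CCAAT at -91 and GGGCGG at -213, the latter on the strand opposite to the printed letters.
Pax8: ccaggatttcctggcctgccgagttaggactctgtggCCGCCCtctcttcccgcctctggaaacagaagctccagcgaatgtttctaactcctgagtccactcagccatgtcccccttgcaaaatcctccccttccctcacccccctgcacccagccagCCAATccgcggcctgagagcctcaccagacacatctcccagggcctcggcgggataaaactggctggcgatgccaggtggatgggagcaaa
A noncoding RNA gene lies over part of Pax8. The name was in 2 rows, and the second held only 3 reads and 1 read, in OS at 12 h. Pax8 was at 3.87, 1.67 and 4.09 CPM at 0 h, whereas the OS samples had 7.36, 7.58 and 4.84 CPM at 3 h, 24.7, 20.9 and 22.2 CPM at 12 h and 0.149, 0.156 and 0 CPM when last measured. The samples of 12 h had 164, 140 and 146 reads and those of 72 h 1, 1 and 0, so OS had the highest level of all groups at 12 h and was under the floor at 72 h. The rise at 12 h was 2.54 ± 0.27 (SE; limma adjusted p = 3.5e-09), and the fall at 72 h was -1.88 ± 0.27 (adjusted p = 2.01e-06). Between 12 and 72 h the change was -4.42 ± 0.27 (SE; limma adjusted p = 1.72e-14), a ratio of 223 between the times with an exact 95% counting interval of 61.5 to 1850.

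In AD, Pax8 was at 3.21, 3.46 and 1.78 CPM at 3 h, 3.803, 2.95 and 3.33 CPM at 12 h and 0, 0.355 and 0.475 CPM when last measured. In CH it was at 8.69, 8.66 and 9.47 CPM at 3 h, 3.8998, 3.43 and 2.53 at 12 h, then 1.28, 0.221 and 0.889 at 72 h. All 3 lineages were thus under the undifferentiated samples at 72 h, and CH was raised past the threshold at 3 h. In OS at 3 h all samples were above the undifferentiated ones, with an estimate of 0.89 under the fold limit that was 1.07 without OS replicate 3, past the threshold. The rise in CH at 3 h was 1.30 ± 0.27 (SE; limma adjusted p = 0.000221), and 0.996 without CON replicate 2, the lowest of its group. The falls at 72 h were -1.68 ± 0.27 (SE; limma adjusted p = 8.73e-06) in AD and -1.22 ± 0.27 (adjusted p = 0.000529) in CH, the latter -0.96 without CH replicate 2. At 12 h, OS was above AD by 2.44 ± 0.27 (SE; limma adjusted p = 2.21e-08) and above CH by 2.47 ± 0.27 (adjusted p = 1.08e-08). At 3 h, CH was above AD by 1.41 ± 0.27 (SE; limma adjusted p = 0.000198), and OS was above AD by 1.002 ± 0.27 (adjusted p = 0.00838), which was lost with the pseudocount of 0.1 (adjusted p = 0.138), with median-ratio scaling and in 3 of 6 fits without 1 library (0.79 without AD replicate 3).

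The POU genes were mostly low. Pou2f3, the factor of tuft cells, had 2, 1 and 5 reads at 0 h and 19, 18 and 9 in AD at 3 h, and rose there from 0.395 ± 0.323 to 2.09 ± 0.747 CPM (mean ± SD). That change of 1.14 ± 0.26 (SE; limma adjusted p = 0.000673) was 0.97 without AD replicate 2. By 12 h the AD samples were back at 1, 1 and 0 reads, a log2 fold change of -1.45 ± 0.26 (adjusted p = 6.6e-05), and OS at 12 h had none. Pou6f1, a brain and muscle factor, was at 8, 14 and 3 reads at 0 h and at 0 in all AD samples of 3 h, so against the floor of those libraries its mean was at least 2.51-fold higher at 0 h. The fitted fall was -1.07 ± 0.27 (SE; limma adjusted p = 0.00151), and -0.82 without CON replicate 2. Pou5f2, a factor of male germ cells, was at 2.84 to 9.19 CPM in all samples and passed in no comparison, with -0.79 ± 0.27 (SE; limma adjusted p = 0.0151) in OS at 12 h as its furthest estimate.

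Among the zinc finger homeobox genes, Tshz2, a teashirt repressor, was at 40.7, 43.9 and 46.4 CPM at 0 h. In CH it was at 19.5, 19.8 and 21.4 CPM at 3 h, 20.5, 20.7 and 22.97 at 12 h, then 13.1, 18.4 and 16.01 at 72 h. All 9 CH samples lay below the undifferentiated ones, and the changes were -1.07 ± 0.32 (SE; limma adjusted p = 0.00780), -0.99 ± 0.32 (adjusted p = 0.0154) and -1.42 ± 0.32 (adjusted p = 0.000709), of which the second was under the fold limit. In OS it was at 23.8, 24.8 and 25.04 CPM at 3 h, 28.02, 22.7 and 27.7 at 12 h, then 44.9, 36.2 and 41.3 at 72 h. The 6 OS samples of 3 and 12 h also lay below all undifferentiated ones, with estimates of -0.80 and -0.72 under the fold limit, and those of 72 h overlapped them. In AD it was at 30.8, 32.4 and 34.6 CPM at 3 h, again below all undifferentiated samples, with an estimate of -0.41 that did not pass. At later times the AD samples disagreed, with 45.2, 15.1 and 19.4 CPM at 12 h, then 52.7, 55.3 and 13.3 at 72 h. Replicate 1 of 12 h was above the others, and replicate 3 of 72 h was below them. The estimate from 0 h was -0.85 at 12 h, under the fold limit, and without replicate 1 it was -1.298 (limma adjusted p = 0.00163), past the threshold. At 72 h it was -0.34, and 0.30 without replicate 3, and neither passed. CH was below AD at 72 h with a log2 difference of -1.07 ± 0.32 (adjusted p = 0.00657), and that call was lost without AD replicate 1 or 2 (-0.73 without replicate 2) or CH replicate 1, while it was -1.72 without AD replicate 3. OS was above CH at 72 h by 1.32 ± 0.32 (SE; limma adjusted p = 0.00138). Several transcripts overlap Tshz2 in the annotation.

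Zfhx2, a large zinc finger homeobox factor of the nervous system, was at 10.5, 13.4 and 11.1 CPM at 0 h. In OS it was at 2.04, 2.37 and 1.66 CPM at 3 h, 4.67, 4.93 and 4.72 at 12 h, then 5.67, 6.397 and 4.97 at 72 h. All 9 OS samples were below the undifferentiated ones, with log2 fold changes of -2.06 ± 0.26 (SE; limma adjusted p = 9.62e-08) and -1.12 ± 0.26 (adjusted p = 0.000587) and -0.92 at 72 h under the fold limit. In AD it was at 9.51, 5.98 and 8.77 CPM at 3 h, below the undifferentiated samples with an estimate of -0.49 that did not pass. It was at 10.2, 11.8 and 12.8 CPM at 12 h, overlapping the undifferentiated samples, and at 4.45, 5.498 and 2.38 CPM at 72 h, a log2 fold change of -1.35 ± 0.26 (SE; limma adjusted p = 9.63e-05). In CH it was at 10.5, 7.93 and 5.16 CPM at 3 h, 9.68, 5.92 and 4.59 at 12 h, then 5.898, 6.63 and 6.004 at 72 h, with estimates of -0.55, -0.76 and -0.81 from 0 h under the fold limit. The CH samples of 12 and 72 h also lay below all undifferentiated ones, while those of 3 h overlapped them. At 3 h, OS was below AD with a log2 difference of -1.57 ± 0.26 (SE; limma adjusted p = 3.49e-05) and below CH with a log2 difference of -1.51 ± 0.26 (adjusted p = 6.22e-05). Thtpa and Ap1g2 overlap Zfhx2 in the annotation. Irx5, an Iroquois factor of the TALE class, ranged from 0.634 to 5.39 CPM over all samples and passed in no comparison, with estimates from 0 h of 0.19 to 0.87. Crnde overlaps Irx5, Arb2a overlaps Pou5f2 and a noncoding RNA gene overlaps Pou6f1 in the annotation.

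The 40 members that were not tested did not reach 1 CPM in 3 samples. Lhx9, a LIM factor of gonads and limbs, had the most reads of them, 90 over 30 samples, with 7, 17 and 8 in AD at 3 h and 2, 2 and 0 at 0 h. Pax4, a paired box factor of pancreatic islets, had 11, 6 and 6 reads in AD at 3 h and none at 0 h. Both were above the floor of 3 reads in all 3 AD samples of 3 h. Lhx8, Dlx5 and Pax4 had 33 reads each, and the other 36 had 1 to 13 reads over all samples. The TALE cofactors Meis2, Pbx4 and Tgif2 had 1, 10 and 3 reads in all. Members such as Alx4, Irx4 and Msx3 had 1 read, which at this depth is no measure of expression.

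Between lineages, the members that differed at 3 h were 6 in each pair, against 7.66% of all genes for OS and AD (2.77% higher and 4.88% lower), 7.31% for OS and CH (2.25% higher and 5.07% lower) and 9.35% for CH and AD (5.13% higher and 4.22% lower). OS was higher than AD in 3 (Hopx, Hoxd13 and Pax8) and lower in 3 (Dlx3, Meox2 and Zfhx2). OS was higher than CH in 2 (Dlx3 and Hopx) and lower in 4 (Emx2, Gbx2, Meox2 and Zfhx2), with 3 and 3 under median-ratio scaling (2.5% and 4.06% of all genes). CH was higher than AD in 5 (Gbx2, Hoxd9, Hoxd10, Hoxd13 and Pax8) and lower in Dlx3. The call of Hoxd9 was lost in 4 of 6 fits without 1 library (0.95 without CH replicate 2). Since the 0 h samples cancel, each of these is also the difference of the changes from 0 h.

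At 12 h, OS and AD differed in 8 members, against 13.2% of all genes (6.99% higher and 6.17% lower), with 5 higher (Dlx3, Hopx, Hoxd13, Msx2 and Pax8) and 3 lower (Hoxc6, Meox2 and Zfhx2). The call of Hoxc6 was lost in 4 of 6 fits without 1 library (-0.75 without OS replicate 3), and edgeR called 3 higher and 4 lower between OS and AD, against 6.65% and 11.1% of all genes. OS and CH differed in 4, against 16% of all genes (8.87% higher and 7.08% lower), with Dlx3, Hopx and Pax8 higher and Hoxd3 lower. CH and AD also differed in 4, against 13.6% (7.04% higher and 6.56% lower), with Gbx2 higher and Dlx3, Hoxc6 and Meox2 lower (Hoxc6 at -0.90 without AD replicate 3), and with 0 higher and 3 lower under median-ratio scaling (7.01% and 6.39%). At 72 h, OS was higher than AD in 5 (Dlx3, Hopx, Hoxc10, Meox2 and Msx2) and lower in none, where 13.7% of all genes were called (9.21% higher and 4.52% lower). OS and CH differed in 8, against 19.6% (8.55% higher and 11.1% lower), with 6 higher (Dlx3, Dlx4, Hopx, Hoxc6, Meox2 and Tshz2) and 2 lower (Gbx2 and Hoxd13). CH and AD differed in 8, against 25.5% (16.5% higher and 9.01% lower), with 4 higher (Gbx2, Hoxd10, Hoxd13 and Msx2) and 4 lower (Dlx3, Dlx4, Hoxc6 and Tshz2). For OS and AD at 72 h, edgeR also called 0 members lower, with 4 higher, against 8.92% and 7.13% of all genes.

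**Figure D4:**
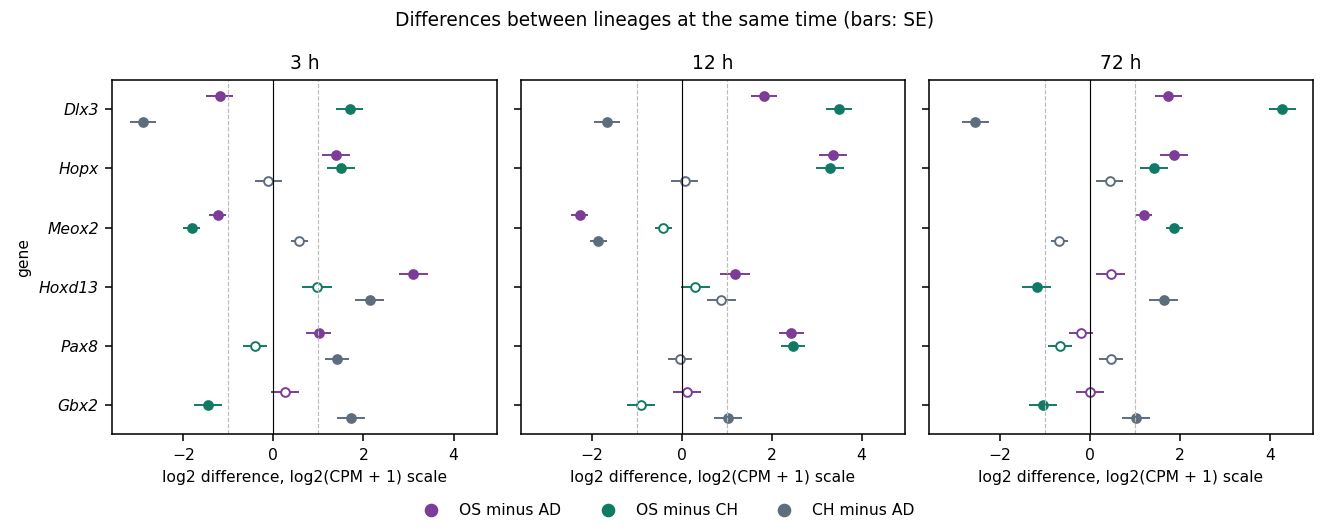
Differences between lineages at 3, 12 and 72 h (panels) in Dlx3, Hopx, Meox2, Hoxd13, Pax8 and Gbx2, on the log2(CPM + 1) scale with SE bars, where filled points passed the threshold and dashed lines mark 1 and -1. Dlx3 of OS minus AD moved from -1.20 at 3 h to 1.83 at 12 h, and Hopx of OS was above both others at every time.

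Between successive time points, 10 of the 22 members passed at least once, which 45.2% of all genes did. In OS, 4 rose (Dlx3, Hopx, Meox2 and Pax8) and Hoxd13 fell from 3 to 12 h, against 7.82% of all genes (4.7% higher and 3.12% lower), and the rise of Meox2 was 0.77 without OS replicate 3 of 3 h. edgeR called 3 higher and 4 lower there, against 3.8% and 6.49% of all genes. From 12 to 72 h, 4 rose (Emx2, Hoxc6, Meox2 and Pou2f3) and 3 fell (Hopx, Hoxd13 and Pax8), against 23.2% (9.67% higher and 13.5% lower), with 7 higher and 3 lower under median-ratio scaling (11.5% and 10.8% of all genes). The rise of Pou2f3 was 0.79 without OS replicate 3 of 72 h. In AD, 3 rose (Hoxc6, Hoxd10 and Meox2) and 2 fell (Dlx3 and Pou2f3) from 3 to 12 h, against 12.9% (5.13% higher and 7.82% lower), and the rise of Hoxd10 was 0.93 without AD replicate 3 of 12 h. Hoxd13, Pax8 and Zfhx2 fell from 12 to 72 h in AD, against 16% (5.18% higher and 10.8% lower), with 1 higher and 1 lower under median-ratio scaling (9.9% and 5.82%), and the fall of Hoxd13 was -0.60 without AD replicate 1 of 12 h. In CH, Pax8 fell from 3 to 12 h, against 7.68% (1.74% higher and 5.94% lower), and from 12 to 72 h Hoxd10 rose and Dlx3 and Pax8 fell, against 13.2% (7.98% higher and 5.23% lower), with 2 higher and 2 lower under median-ratio scaling (9.88% and 3.42%). The rise of Hoxd10 was 0.92 without CH replicate 2 of 12 h. Dlx2, Hoxd4, Irx5 and Pou5f2 passed in none of the 24 comparisons.

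The RefSeq promoter table used here had windows for 38 of the 62 members, 13 of them tested. Their GC content had a median of 61.4% over 40 windows, from 45.2% to 86.0%, against a median of 51.2% over all 33469 windows. GGGCGG was in 55.0% of the member windows, against 30.5% of all, CCAAT in 42.5% against 34.0%, TATAAA in 12.5% against 12.9%, and TAATTA, a homeodomain motif that reads the same on both strands, in 2.50% against 4.86%. Members and the whole set differ in base composition, so these shares are descriptions. No window of a tested member held TAATTA.

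The homeobox genes outside the name rule numbered 32 in the files, of a list of 77, and 7 were tested. Zeb1, a repressor of epithelial genes, fell in AD at 3 h (log2 fold change -1.21, limma adjusted p = 0.00876). Hlx, a factor of visceral mesenchyme, rose in AD at 72 h, from a mean of 11.2 to 36.3 CPM (log2 fold change 1.63, limma adjusted p = 1.09e-06). Gsc, the goosecoid gene, fell in CH at 12 h (-1.09) and at 72 h (-1.74). No other call was made in the list against 0 h.

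Polycomb and trithorax proteins keep HOX genes silent or active. Of 14 such genes in the files, 6 were tested. Wdr5, a trithorax subunit, rose in OS at 3 h (1.63) and 12 h (1.19) and in AD at 3 h (1.02). Rbbp7 rose in OS at 12 h (1.22). Retinoic acid induces HOX genes, and 7 of its 13 listed pathway genes were tested. Dhrs3, which lowers retinoic acid by reducing retinal, fell in OS at 3 h (-3.40) and 12 h (-1.82) and in AD at 3 h (-1.99), and rose in CH at 3 and 12 h (1.19 at both). Cyp26b1, which degrades retinoic acid, rose in OS at 12 h (1.46) and CH at 3 h (1.52). Adh7, an alcohol dehydrogenase of retinol, rose in OS at 12 and 72 h (1.01 and 1.48) and AD at 3 h (1.11) and fell in CH at 72 h (-1.16). Rbp4, the retinol carrier, rose at 72 h in AD (2.23) and CH (1.98), where the receptor Rarb also rose (1.23).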

How the data were processed

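RNA of 30 samples, in 10 groups of 3, had been sequenced, after rRNA removal per the labels and from an mRNA library per the study's methods. The submitters' processing notes name Trimmomatic, HISAT2 and StringTie, without versions. The genome build and whether counting used strand are not given in the sources used here. The authors deposited 1 file per sample under a name that refers to FPKM, but the values were CPM: they came out as whole reads for 100.0% of entries (tolerance 0.02 reads). The recovered totals were 3899609 to 9046719 reads, median 6579543, of which listed genes held 38.9 to 71.4%, and intervals and floors cover counting error only. Rows of the same name were summed (729 names), giving 9999 names.

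The 4363 genes that reached 1 CPM in 3 or more samples were fitted on log2(CPM + 1) with limma 3.58.1 (R 4.3.3) in 1 model of 10 groups without covariates, with Benjamini-Hochberg adjustment in each of 24 comparisons: 9 with 0 h, 6 between successive times and 9 between lineages. Alternatives were a pseudocount of 0.1, no filter, median-ratio scaling, edgeR 4.0.16 (quasi-likelihood) on the recovered reads, a replicate block and leaving out each sample. The rule for named genes asked for values in every sample of members past the threshold against 0 h or between lineages (up to 25, by fold change). Members of few reads were given only in the groups their calls concern or as reads, and other members by ranges or reads. The members and gene lists were chosen with earlier results of these data known. Some items are not reported here.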

Additional observations from a re-analysis of the deposited data

Results flagged for a closer look

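The change from 0 h differed between lineages, by the limma contrast of the 2 groups, in 6 homeobox genes for each pair of lineages at 3 h, where 7.31% to 9.35% of all genes were called. At 12 h the numbers were 8 for OS and AD, 4 for OS and CH and 4 for CH and AD, against 13.2%, 16% and 13.6% of all genes, so that the shares of members in the last 2 pairs (18.2% each) were near the background. At 72 h they were 5 for OS and AD, 8 for OS and CH and 8 for CH and AD, against 13.7%, 19.6% and 25.5%.

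Dlx3 at 72 h moved in opposite directions, up in all 3 OS samples and down in all 3 CH samples against the undifferentiated ones. The log2 difference was 4.28 ± 0.30 (SE; limma adjusted p = 4.4e-13). Groups of 3 are too small for the test of single outlying samples, which was not run.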

How the results depend on the processing

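Of the 124 calls of members over the 24 comparisons, 7 were lost with a pseudocount of 0.1, 3 with no filter, 12 with median-ratio scaling and 7 in edgeR, and 90 passed in every fit that left out 1 sample. No call reversed in these fits. With a pseudocount of 0.1 the number of members called against 0 h was 10 in OS at 3 h, 1 in AD at 12 h and 5 in CH at 12 h, and it was 2 from 3 to 12 h in CH. That setting called 23.3%, 17.4%, 18.8% and 9.24% of all genes in these comparisons. edgeR called 11 in OS at 3 h, 14 in OS at 12 h, 5 in CH at 12 h and 13 between 12 and 72 h in OS, against 23%, 27.4%, 17.3% and 30.4% of all genes. With no filter AD at 12 h had 1, and with median-ratio scaling CH at 12 h had 4, against 13.6% of all genes. Without 1 sample, AD at 12 h had 1 to 2, CH at 12 h 2 to 4, and CH from 3 to 12 h 1 to 2. The cause was not tested.

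Samples with the same replicate number did not deviate together (135 pairs, median r -0.00854, from -0.226 to 0.160), and 3 of 30 samples were closest to their own number. Whether same-numbered samples share animals cannot be told from this, since the sources used here do not tie samples to animals. With the replicate block all 124 calls were kept, and OS at 3 h had 6 called as before. Counts near the floor of 3 reads limit the 40 untested members and the low HOX, POU and Gbx2 values.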
